A study of Mus musculus with 26 samples.

Results

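The genes described here encode the proteins of the cytosolic ribosome, followed through fractions of EML cells. EML is a blood progenitor line of the mouse named for its erythroid, myeloid and lymphoid potential. The members are the genes on the array whose symbol starts Rpl or Rps followed by a digit, with Rplp0, Rplp1, Rplp2 and Rpsa. Of 95 matching names, 10 Rps6k kinases and the transcribed pseudogene Rps4l were left out. The 84 members among 18378 symbols were 43 genes of the large subunit, 31 of the small subunit, 3 of the stalk, 6 paralogs (Rpl22l1, Rps27l, Rpl39l, Rpl3l, Rpl7l1 and Rpl36al) and Rps19bp1, which carries the prefix but encodes a binding protein of Rps19. Each gene was represented by 1 probe, the one with the highest mean signal.

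Total RNA of EML fractions was hybridised to 26 Agilent 1-colour arrays in 3 sets. All cells had been grown with horse serum and SCF-conditioned medium. The first set held the Sca1hi, CR Sca1lo and EryCP fractions, with 3 arrays each. The second held a repeat of EryCP and Ediff, the CD34-negative and cKit-negative cells that EryCP gave under erythropoietin (Epo), again with 3 arrays each. The third held 4 arrays of CD34+ CD103- cells, 4 of CD34- CD103- cells and 3 of the latter after Epo. The labels used here do not spell out CR or EryCP, and give no Epo dose or duration. They do not say that replicates came from separate cultures, so p-values measure the spread between these samples, which may be technical. The titles of the third set call its cells EMLe2 and the other titles EML, while all samples have EML as their line of origin. What EMLe2 stands for is not given in the sources used here. All cells come from a cell line, so no group carries the spread between animals.

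The ribosome reads mRNA through its small subunit and joins amino acids in its large subunit, and each protein is needed in about the same number as the others. The mRNAs of these proteins usually start with a 5′ terminal oligopyrimidine tract (TOP), a C followed by pyrimidines, through which mTOR and Larp1 control their translation. In red cell formation the family is known for Diamond-Blackfan anaemia, in which loss of 1 copy of genes such as RPS19, RPL5 or RPL11 impairs erythroid precursors.

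The sequences below show the annotated start of transcription of some members, ending with paralogs that departed from the family. They are windows from RefSeq on GRCm38.p6, each with 30 bases before the annotated start and 20 from it, written in the direction of transcription. Capitals mark, in the first 4, the pyrimidine run at the start. In Rpl38 and Rpl31 they also mark a CCGGAAG word, the core of ETS family sites, and in Rpl22l1 a TATAAA word. A pyrimidine run that begins at the base after the annotated start of Rpl22l1 is not marked.
Rps18 (chr17:33955646-33955695, minus strand): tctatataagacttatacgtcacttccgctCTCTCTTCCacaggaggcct
Rps6 (chr4:86857348-86857397, minus strand): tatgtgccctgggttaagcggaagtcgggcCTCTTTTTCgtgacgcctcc
Rpl28 (chr7:4792935-4792984, plus strand): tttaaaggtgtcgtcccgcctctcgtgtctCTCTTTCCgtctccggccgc
Rpl38 (chr11:114668550-114668599, plus strand): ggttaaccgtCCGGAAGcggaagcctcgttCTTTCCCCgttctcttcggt
Rpl31 (chr1:39367821-39367870, plus strand): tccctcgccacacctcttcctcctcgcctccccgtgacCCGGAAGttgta
Rpl22l1 (chr3:28805478-28805527, plus strand): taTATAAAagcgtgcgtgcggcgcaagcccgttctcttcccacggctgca
Rpl7l1 (chr17:46782637-46782686, minus strand): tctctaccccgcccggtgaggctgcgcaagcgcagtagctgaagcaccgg
Rpl3l (chr17:24727796-24727845, plus strand): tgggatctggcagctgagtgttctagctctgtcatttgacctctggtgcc

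RefSeq promoter windows of 300 bases, which run from upstream of the start into the transcript, were matched to 64 of the 84 members, as 76 windows. A cytosine at the annotated start followed by at least 4 pyrimidines was present in 13 of the 76 windows (17.1%), against 2.51% of all 32851 windows. The members with it were Rpl14, Rpl15, Rpl28, Rpl35, Rpl35a, Rpl38, Rplp2, Rps10, Rps15a, Rps18, Rps21, Rps27 and Rps6. The count rests on the annotated base, so a start annotated a few bases away gives no match. Most member windows lacked the run, so its absence does not set the printed paralogs apart. CCGGAAG on either strand stood in 27 windows (35.5%), against 8.86% of all. The core TATA box word marked in Rpl22l1, sought on either strand, was found in 7 windows (9.21%), against 13.6% of all windows.

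The word AGATAA, which erythroid GATA factors can bind, was sought on either strand as well. It was found in 5 windows (6.58%), against 11.2% of all windows. All these matches describe letters in a window and not sites of binding.

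Levels are given as log2 of the processed signal over the 75th percentile of the same array, so that 0 is that percentile. All 84 members passed the filter on dim probes in every set. No spot was saturated. Rpl39l was not well above background on 2 of the 26 arrays, and Rpl3 and Rpl27a each lacked a usable spot on 1 array, for Rpl3 the second CD34- CD103- Epo array. Replicate arrays of a group correlated with r between 0.968 and 0.993 over all probes. Members have many near-identical processed copies in the genome, and binding of those to the probes was not tested.

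The median level of the 84 members was 7.14, 7.09 and 6.77 on the 3 Sca1hi arrays, 7.27, 7.38 and 6.77 on the CR Sca1lo arrays, and 7.24, 6.74 and 7.14 on the EryCP arrays. On the repeat EryCP arrays it was 7.45, 7.33 and 7.47, and on the Ediff arrays 8.01, 8.21 and 8.11. Ediff therefore stood above its set's other group on this scale without overlap. In the third set the medians were 7.43, 7.44, 7.26 and 7.35 in CD34+ CD103- cells, 7.39, 7.19, 7.32 and 7.17 in CD34- CD103- cells, and 7.43, 7.63 and 7.53 after Epo. The first 3 fractions overlapped. The arrays on slide 2 of that set, 1 of each fraction, gave 6.74 to 6.77, below the 7.09 to 7.38 of the other slides. Levels are not compared between sets.

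**Figure D1:**
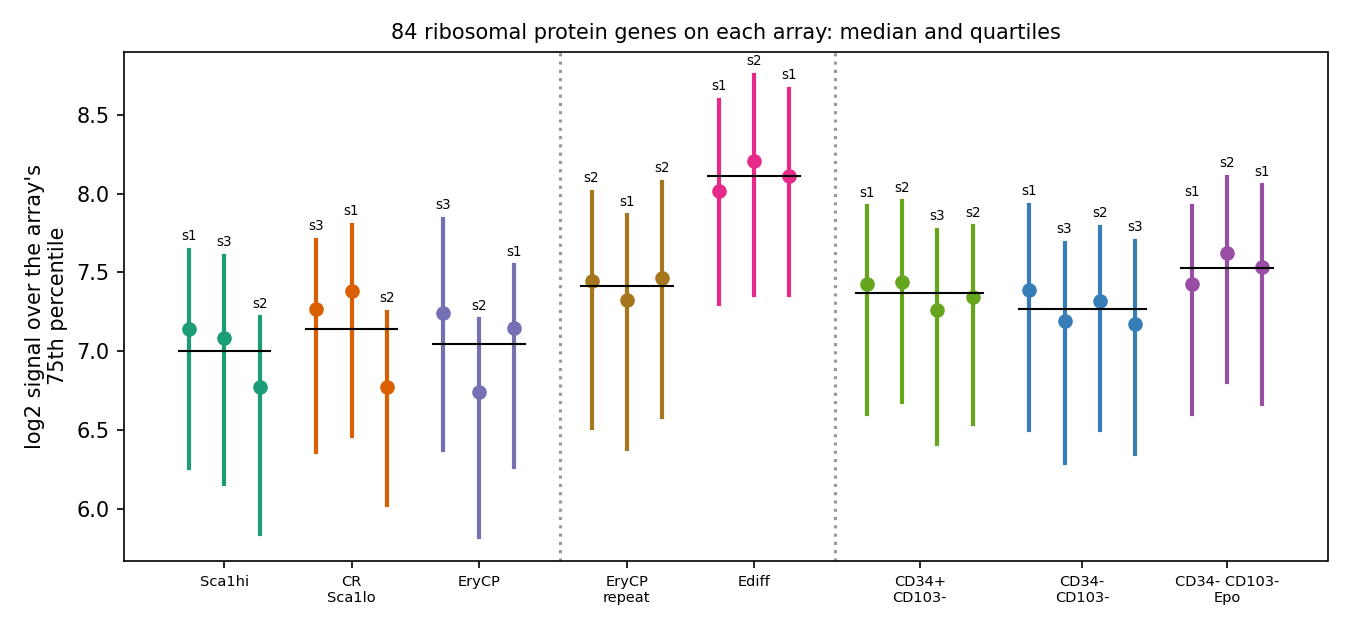
Median level of the 84 ribosomal protein genes on each array (vertical axis, log2 signal over the array's 75th percentile), by group, with 1 point per array. Vertical lines span the quartiles of the members, horizontal bars are group means, s1 to s3 name the slide within its set, and dotted lines divide the sets. Ediff arrays sit at 8.01 to 8.21 and the repeat EryCP arrays at 7.33 to 7.47, while the groups of the first set overlap.

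Across Sca1hi, CR Sca1lo and EryCP, 83 of the 84 ribosomal protein genes gave no call, and the exception in each comparison was Rpl3l, a paralog of Rpl3 known for its expression in heart and skeletal muscle. Calls are limma tests over all genes of the array at a Benjamini-Hochberg adjusted p under 0.05. From Sca1hi to CR Sca1lo 0 members rose and 1 fell, where 3.63% of all 26449 genes tested were called, 1.23% higher and 2.4% lower. The members' median difference was 0.11, and that of all genes 0.03. From CR Sca1lo to EryCP 1 member fell, with 5.01% of all genes called (2.74% higher and 2.26% lower), and the member median was -0.08 against -0.07. From Sca1hi to EryCP 1 member fell, with 6.45% of all genes called (3.16% higher and 3.29% lower), and the medians were 0.03 and -0.03. The 3 comparisons share their groups and are not independent. Also at an unadjusted limma p under 0.05, only 1 member passed in each. Leaving out 1 array at a time moved each of these member medians across 0. Their ranges were -0.0035 to 0.28, -0.25 to 0.079 and -0.096 to 0.18. Each such step also left slide 2, with its lower arrays, unequally shared between the groups. Within slides the median for CR Sca1lo against Sca1hi was above 0 on all 3, at 0.035 to 0.18. Those for EryCP crossed 0, from -0.23 to 0.032 against CR Sca1lo and from -0.058 to 0.18 against Sca1hi. After normexp the member medians of the comparisons with EryCP were 0.28 against CR Sca1lo, which turns the sign, and 0.40 against Sca1hi. Those of all genes were -0.55 and -0.50, so the members lay 0.83 and 0.90 above the median gene.

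Rpl3l had levels of 0.06, 0.22 and -0.02 on the Sca1hi arrays, -1.76, -2.05 and -1.72 on the CR Sca1lo arrays and -2.99, -2.49 and -2.89 on the EryCP arrays. The 3 fractions did not overlap, and the order Sca1hi, CR Sca1lo, EryCP was kept within each slide. It fell by 1.93 ± 0.18 (SE) on the log2 scale from Sca1hi to CR Sca1lo, which is 3.81-fold (limma adjusted p = 0.00106, n = 3 and 3). The further fall to EryCP was 0.94 ± 0.18 in size, or 1.92-fold (limma adjusted p = 0.0219), and that from Sca1hi to EryCP was 7.32-fold (limma adjusted p = 5.75e-05). Within slides the difference ranged from -2.12 to -1.69 for the first step, from -1.23 to -0.77 for the second and from -3.20 to -2.46 for the whole.

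With normexp background correction the calls for Rpl3l were lost, at -1.12 (limma adjusted p = 1), -1.21 (limma adjusted p = 0.526) and -2.32 (limma adjusted p = 0.0599). Scaling on the spike-in probes ended the first 2 calls and kept that from Sca1hi to EryCP. The step to EryCP was also lost without slide 2 (limma adjusted p = 0.0524) and without CR Sca1lo array 1 or 3 or EryCP array 1 or 3, with limma adjusted p from 0.082 to 0.106.

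Rpl3 itself, the ubiquitous gene, measured 7.20, 7.19 and 6.66 in Sca1hi, 7.36, 7.41 and 7.08 in CR Sca1lo and 7.00, 6.74 and 7.06 in EryCP. CR Sca1lo and EryCP did not overlap, but the difference of -0.35 was not called (limma adjusted p = 0.57). Groups without overlap were seen for 1, 2 and 1 members in the 3 comparisons, against 18.7%, 18.1% and 19% of all genes. The other 83 members lay between -0.10 and 0.33 for CR Sca1lo against Sca1hi, with a median standard error of 0.23. Differences of that size were below what 3 arrays per group could resolve.

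With the slide as a block, which takes up the lower arrays of slide 2, 3 members were called for CR Sca1lo against Sca1hi and 6 for EryCP against CR Sca1lo. Rpl36, of the large subunit, was 0.30 higher in CR Sca1lo (limma adjusted p = 0.0448). The members lower in EryCP in that fit were Rpl3l, Rpl4, Rpl27a, Rpl3, Rpl29 and Rps19, and Rpl4 was at -0.43 (limma adjusted p = 0.0246). The same fit called 17.9% and 20.2% of all genes.

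In Ediff, 81 of the 84 members were called higher than in the repeat EryCP arrays and 0 lower when signals were set against the 75th percentile, while spike-in scaling gave 18 members above 0 and 66 below with 0 called. Of all 24669 genes tested, 56.6% were called and 39.6% were called higher and 17% lower. The member median was 0.68, or 1.6-fold, and that of all genes was 0.45. The members' median thus lay 0.22 above that of all genes. The groups did not overlap for 81 members, against 63.3% of all genes. Rpl39l, Rpl3l and Rpl7l1, all paralogs, were the members whose representing probe gave no call. Each of the 32 members with 2 or more probes had at least 1 probe called in a fit over all probes. With the mean of all probes of a gene, 83 of 84 members were higher at an unadjusted limma p under 0.05. The share of all genes at that threshold is not given here.

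The size and sign of the family's difference depended on the scaling. Quantile normalization gave a member median of 0.03, with 16 members called higher and 1 lower, and an all-gene median of 0.18, with 50.5% of genes called. The deposited value table gave 0.14, with 37 higher and 4 lower, beside 0.10 for all genes and 51.3% called. Normexp correction gave 0.35 with 0 members called by limma, also at an unadjusted p under 0.05, where 0.969% of all genes were called and the all-gene median was 0.41. Spike-in scaling gave -0.15 with 0 members called, also unadjusted, beside -0.37 for all genes and 10.4% called. On the 3 Ediff arrays the spike-in signal relative to the 75th percentile ranged from 1.60 to 3.27. Relative to the median gene, the members were higher by 0.22 with the 75th percentile and with the spike-ins and by 0.04 in the value table, and lower by 0.15 after quantile normalization and by 0.06 after normexp.

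**Figure D2:**
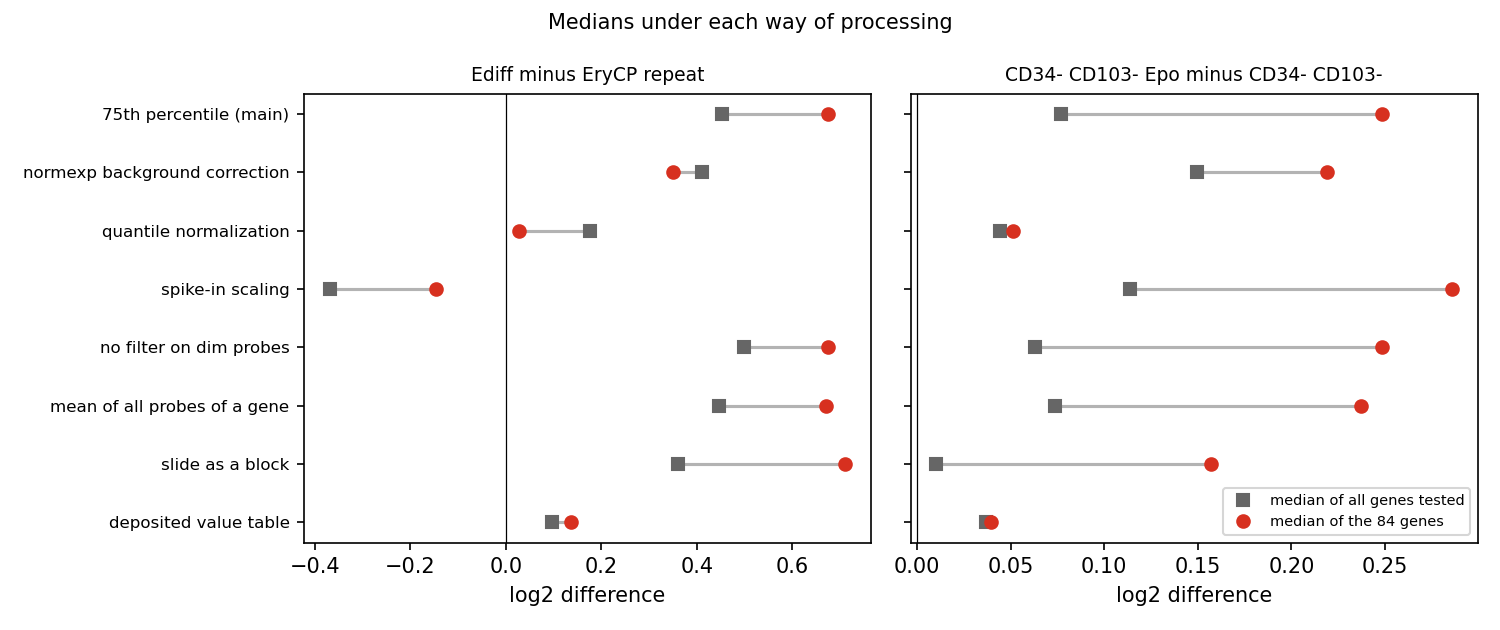
Median difference of the members and of all genes (horizontal axis, log2) under each processing of the signals, for Ediff against the repeat EryCP arrays and for the third set's Epo comparison. For Ediff the member median runs from -0.15 with spike-in scaling to 0.71 with the slide as a block, and lies below that of all genes after normexp and quantile normalization.

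The members moved in a narrow band. The interquartile range of their differences was 0.19 for Ediff against the repeat EryCP arrays, while that of all genes was 0.87. In the other comparisons the members' range was 0.10 to 0.14 and that of all genes 0.29 to 0.35. This width does not depend on any scaling that shifts a whole array. By mean signal, 82.1% of the members were in the top 1% of genes. Their median standard error for Ediff was 0.10, beside 0.15 for all genes. The width was not set against that of genes of like brightness. Within the 2 slides of the second set, the member median was 0.71 and 0.74. By brightness of the probe, the 42 brighter gave a median of 0.65 and the 42 dimmer 0.76, with a Spearman correlation of -0.34 between mean level and difference over 84 genes measured on the same arrays. By rank and by this split, brighter probes thus had the smaller differences. The Pearson correlation was 0.20, of the other sign. Rpl39l and Rpl3l lay far below the other members, at mean levels of -4.93 and -2.33, while the next dimmest was at 2.21. Their weight in the Pearson value was not tested.

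**Figure D3:**
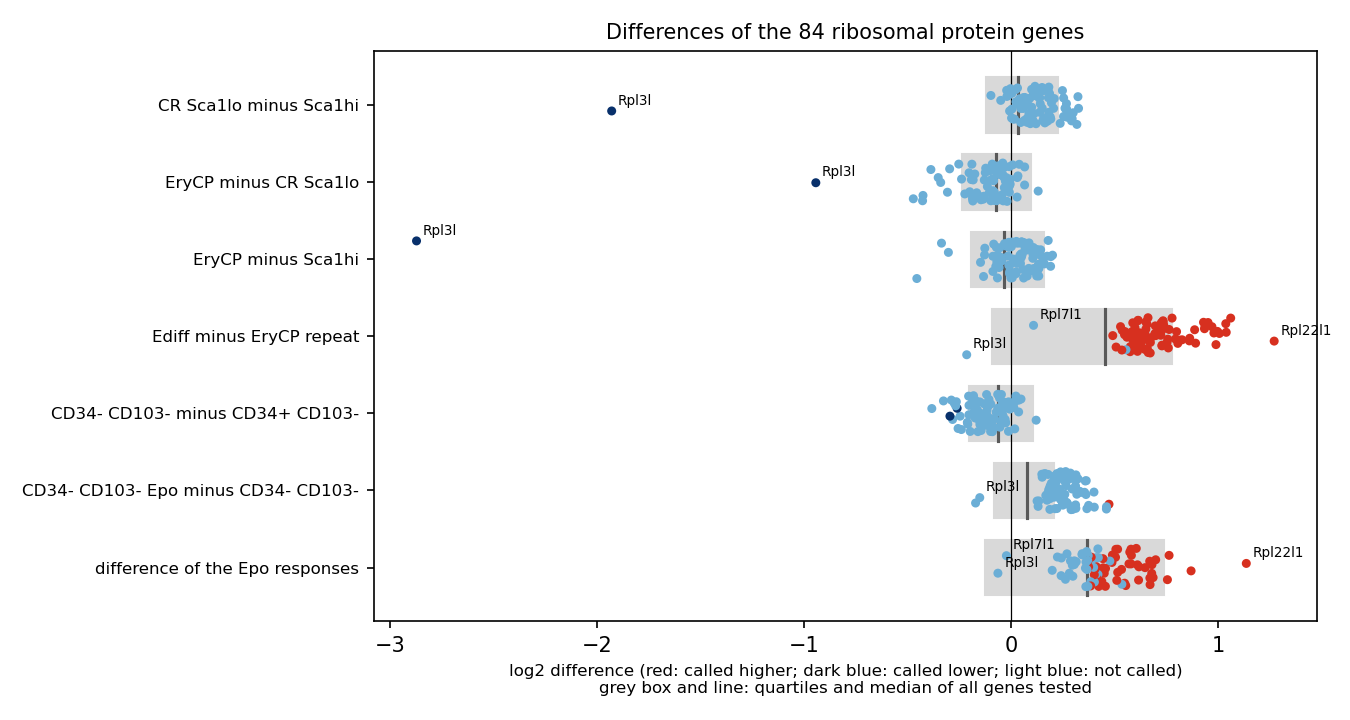
Differences of the 84 members (horizontal axis, log2) in each comparison, with 1 point per gene, coloured by its call. Grey boxes and lines give the quartiles and median of all genes tested. The members form a narrow band at each median, and Rpl3l lies apart in the first set while Rpl22l1 lies at the upper end in Ediff.

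Genes of both subunits had the same median. All 43 large subunit genes were called higher in Ediff on the 75th percentile scale, with a median of 0.70, as were all 31 small subunit genes, also with 0.70. The 3 stalk proteins, which recruit elongation factors to the ribosome, had a median of 0.58. Under spike-in scaling these calls were lost, as for the whole family.

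Among the large subunit genes, Rpl28 measured 7.69, 7.73 and 7.79 on the repeat EryCP arrays and 8.63, 8.89 and 8.80 on the Ediff arrays. The Ediff arrays were all higher, by 1.04 ± 0.10 (SE), or 2.05-fold (limma adjusted p = 0.00046, n = 3 and 3). Rpl31, another protein of that subunit, measured 2.59, 2.48 and 2.62 against 3.36, 3.62 and 3.52, a rise of 0.94 (limma adjusted p = 0.000761). Rpl29 rose by 1.00 and Rpl18 by 0.99. Rpl5 and Rpl11, which carry the 5S rRNA and bind Mdm2 when ribosome assembly fails, rose less. Rpl5 measured 8.35, 8.16 and 8.35 against 8.82, 8.97 and 8.92, and Rpl11 7.52, 7.35 and 7.50 against 8.01, 8.13 and 8.12. Their differences were 0.62 (limma adjusted p = 0.0035) and 0.63 (limma adjusted p = 0.00264), and both were negative after quantile normalization, in the value table and with spike-in scaling.

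Among the small subunit genes, Rps15 measured 5.09, 4.85 and 5.06 on the repeat EryCP arrays and 6.04, 6.01 and 6.08 on the Ediff arrays, a difference of 1.04 ± 0.10 (limma adjusted p = 0.000422). Rps26, which lies at the mRNA exit channel, measured 7.09, 6.82 and 7.05 against 7.99, 8.05 and 7.94, a difference of 1.01 ± 0.11 (limma adjusted p = 0.00061). Both were also called higher after quantile normalization. Rpsa, known too as a laminin receptor, measured 6.03, 5.52 and 5.78 against 6.58, 7.02 and 6.92, with a wider spread and a difference of 1.06 ± 0.18 (limma adjusted p = 0.00402). Rps19, the gene most often mutated in Diamond-Blackfan anaemia, measured 3.54, 3.40 and 3.67 against 4.33, 4.46 and 4.41, a difference of 0.86 ± 0.10 (limma adjusted p = 0.00104). Rps6, the substrate of the S6 kinases, rose by 0.73 (limma adjusted p = 0.0139), and turned to -0.09 with spike-in scaling.

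The stalk gene Rplp0 measured 7.90, 7.61 and 7.97 on the repeat EryCP arrays and 8.14, 8.53 and 8.29 on the Ediff arrays. Its difference of 0.49 ± 0.15 passed by a small margin (limma adjusted p = 0.0347). The call was lost when any 1 array other than Ediff array 1 was left out, with limma adjusted p from 0.053 to 0.0853. The difference was -0.21 after quantile normalization, -0.08 in the value table and -0.33 with spike-in scaling. Rplp1 and Rplp2 rose by 0.58 and 0.65, and turned negative under the same 3 settings. The 20 measured members of the Diamond-Blackfan anaemia list were all called higher on the 75th percentile scale, with a median of 0.75, beside 0.68 for the family.

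Of the 6 paralogs, 3 were called higher in Ediff on their representing probe. Rpl22l1, the paralog of Rpl22 that takes its place in some ribosomes, measured 5.82, 5.81 and 6.02 on the repeat EryCP arrays and 7.12, 7.30 and 7.05 on the Ediff arrays. It was 1.27 ± 0.11 higher (2.41-fold, limma adjusted p = 0.000306), the largest difference of any member. It was positive in every setting tried, called after quantile normalization at 0.76 (limma adjusted p = 0.000986) and in the value table at 1.05, and not called after normexp at 0.98 (limma adjusted p = 0.798) or with spike-in scaling at 0.45 (limma adjusted p = 0.938). Rpl22 measured 7.16, 7.04 and 7.21 against 7.89, 7.86 and 7.86, a difference of 0.73 ± 0.09 (limma adjusted p = 0.00103). Its other probe gave 0.00 (limma adjusted p = 0.976 over all probes), so the 2 probes of Rpl22 disagreed.

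The ratio of Rpl22l1 to Rpl22 is free of array scaling. It lay between -1.34 and -1.18 on the repeat EryCP arrays and between -0.81 and -0.56 on the Ediff arrays. The groups did not overlap, and the difference was 0.54, with an exact permutation p of 0.1 (2-sided), the smallest that 3 against 3 arrays allow. Over the 36 exact tests on paralog ratios the adjusted p was 0.36.

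Rpl7l1, a paralog of Rpl7 with a role in ribosome assembly, measured 2.58, 2.61 and 2.63 on the repeat EryCP arrays and 2.73, 2.82 and 2.59 on the Ediff arrays. These overlapped, and the difference of 0.11 ± 0.10 was not called (limma adjusted p = 0.347), although its other probe gave 0.47 (limma adjusted p = 0.00466 over all probes). Rpl7 measured 7.52, 7.50 and 7.50 against 8.19, 8.22 and 8.13, a difference of 0.68. The ratio of Rpl7l1 to Rpl7 lay between -4.95 and -4.87 and then between -5.54 and -5.40, a difference of -0.57 (exact permutation p = 0.1). Rps27l, a p53-responsive copy of Rps27, measured 6.13, 5.95 and 6.15 against 6.73, 6.86 and 6.79, a difference of 0.72 (limma adjusted p = 0.00174), and its ratio to Rps27 overlapped between the groups. Rpl36al rose by 0.60. Rpl3l stayed low at -3.49, -3.47 and -3.65 against -3.50, -4.27 and -3.48, and the difference of -0.21 was not called (limma adjusted p = 0.437). It was called lower after quantile normalization at -0.61 (limma adjusted p = 0.0119) and in the value table at -0.31 (limma adjusted p = 0.0378). Rpl39l, a copy of Rpl39 known from testis, was at -5.90, -5.39 and -6.15 against -5.11, -5.93 and -4.74. Its groups overlapped (0.56 ± 0.35, limma adjusted p = 0.204), and its other probe gave 2.13.

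**Figure D4:**
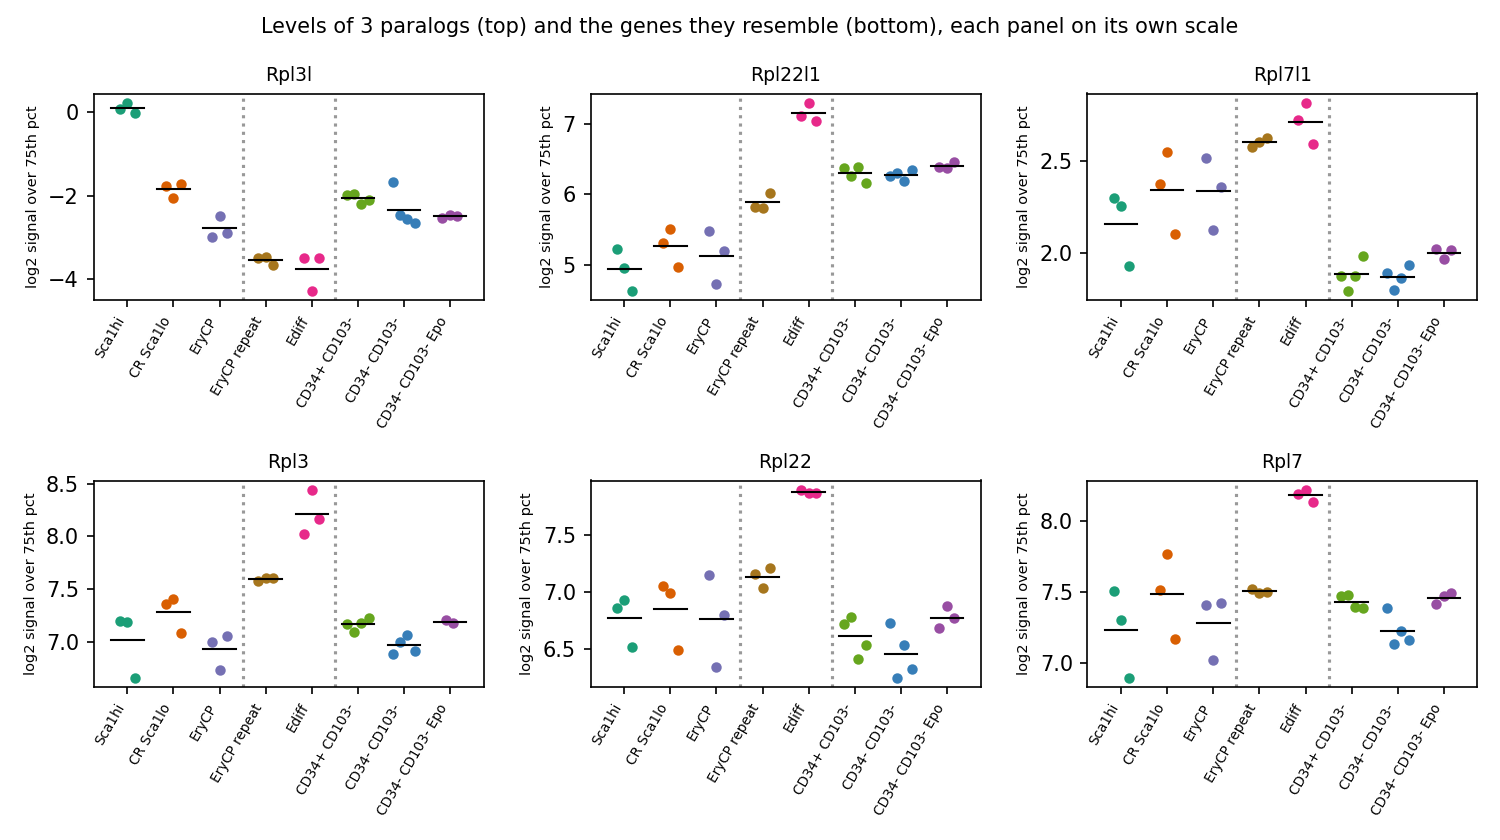
Levels of the paralogs Rpl3l, Rpl22l1 and Rpl7l1 (top) and of Rpl3, Rpl22 and Rpl7 (bottom) on every array (vertical axis, log2 signal over the array's 75th percentile, each panel on its own scale), with 1 point per array, a bar at the group mean and dotted lines between sets. Rpl3l steps down from 0.06, 0.22 and -0.02 in Sca1hi to between -2.99 and -2.49 in EryCP, and Rpl22l1 stands at 7.05 to 7.30 in Ediff.

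When each array was centred on the median of the members, a setting chosen after the values were seen, 8 members departed from the family in Ediff, where 45% of all genes were called. Rpl22l1 lay 0.57 ± 0.10 above the family (limma adjusted p = 0.00415). Rpl28 and Rps15 lay 0.34 above it, Rps26 0.31, Rps19bp1 0.25 and Rpl31 0.24. Rpl7l1 was at -0.59 (limma adjusted p = 0.00414) and Rpl3l at -0.91 (limma adjusted p = 0.0429). In the first set only Rpl3l departed, at -2.07 for CR Sca1lo against Sca1hi (limma adjusted p = 0.0165) and -2.92 for EryCP against Sca1hi (limma adjusted p = 0.0021). After Epo in the third set 0 members departed by this limma test, and 2 did at an unadjusted p under 0.05.

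Genes tied to the family were followed in the same comparison, and their directions refer to the 75th percentile scale, on which 39.6% of all genes were called higher and 17% lower. Fau and Rps27a, which encode ribosomal proteins as fusions with a ubiquitin-like protein and with ubiquitin, rose by 0.60 and 0.58. Of 22 other genes listed for TOP mRNAs, 17 were higher and 1 lower, with a median of 0.62. The lower one was Vim, the intermediate filament vimentin, at -6.68 ± 0.18, a 103-fold fall (limma adjusted p = 3.54e-06). Eif4b, a cofactor of the Eif4a helicase, rose by 1.46 and Eef1d, of the elongation factor 1 complex, by 1.17.

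Of 15 regulators, 9 were higher and 1 lower, including Larp1 at 1.37, the translation repressor Eif4ebp1 at 1.32 and the S6 kinase gene Rps6kb2 at 0.78. Of 15 chaperones and importers of ribosomal proteins, 7 were higher and 2 lower, with Bccip at 0.91, Ipo7 at 0.60 and Btf3 at 0.59, which is near the shares over all genes. Of 14 measured genes of ribosome rescue and turnover, 10 were higher and 1 lower. The largest changes were in Gtpbp2 at 1.62, in Ube2o, the ubiquitin ligase known to clear ribosomal proteins in reticulocytes, at 1.49, and in Gtpbp1 at 1.08. Of 14 genes of the 5S RNP and p53 response, 10 were higher and 1 lower, with Bax at 1.46, Cdkn1a at 1.07 and Pmaip1 at -1.62. Of 78 mitochondrial ribosomal proteins, 67 were higher and 2 lower with a median of 0.70, close to the 0.68 of the cytosolic family. The member lists were made with results of these data known, and their counts are not independent evidence.

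Markers of other cell states moved with this comparison. The summed signal of 7 erythroid markers, in units of the 75th percentile, was 139 to 214 in the repeat EryCP arrays and 1580 to 1800 in Ediff. That of 5 mast cell markers was 668 to 746 against 8.88 to 11.5, that of 5 progenitor markers 25.2 to 26.8 against 2.8 to 3.26, and that of 5 myeloid markers 162 to 182 against 2.07 to 2.42. All 7 erythroid markers were higher and all 5 mast cell markers lower by their means, with 4 of 5 progenitor markers lower and Flt3 higher. Of the myeloid markers only Mpo and Ctsg, the brightest, were lower, and Csf1r, Itgam and Elane were higher. Their part in the members' differences was not tested. In bulk RNA, fewer cells of a type and less RNA per cell cannot be told apart.

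Between CD34- CD103- and CD34+ CD103- cells, 2 members fell, both of the large subunit, and 0 rose. Of 27350 genes, 12.4% were called, 5.65% higher and 6.76% lower. The member median was -0.11 and that of all genes -0.06. Cd34 itself was at a mean level of 6.83 in the CD34+ and 5.05 in the CD34- samples, so its RNA remained in the latter. The summed mast cell markers were 255 to 295 in CD34+ and 561 to 625 in CD34- cells, with all 5 higher by their means. The progenitor markers were 136 to 162 and 57.4 to 73.6, with 4 of 5 lower, and the myeloid markers 441 to 544 and 282 to 318, with 3 of 5 lower. Of the 7 erythroid markers 6 were higher, although their sum, 60.5 to 72.9 and 48.3 to 71.6, overlapped. Their part in the members' differences was not tested.

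Rpl4, a core protein of the peptide exit tunnel, measured 4.89, 4.87, 4.91 and 4.87 in CD34+ cells and 4.67, 4.64, 4.62 and 4.57 in CD34- cells, a difference of -0.26 without overlap (limma adjusted p = 0.0167, n = 4 and 4). Rpl14 measured 3.17, 3.20, 3.15 and 3.03 against 2.97, 2.75, 2.76 and 2.88, a difference of -0.29 ± 0.08 (limma adjusted p = 0.0364). Both differences are small in size, and were of the same sign within every slide. Rpl4 lost its call without CD34- array 4 (limma adjusted p = 0.0562) or CD34+ array 1 (limma adjusted p = 0.0515). Rpl14 lost it without any 1 of CD34- arrays 2, 3 and 4 or CD34+ arrays 1, 2 and 3, with limma adjusted p from 0.0614 to 0.105. Without CD34- array 1, 5 members were called, in a fit whose share of all genes is not given here. Neither gene was called after quantile normalization, with spike-in scaling or in the value table. Rpl4 was also not called after normexp, at -0.16 (limma adjusted p = 0.161), nor Rpl14 without the filter on dim probes (limma adjusted p = 0.0508).

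Groups did not overlap for 6 members, against 17% of all genes. Besides those 2 they were Rpl3, Rpl30, Rpl31 and Rps15a, none of them called. The other probe of Rpl22, not the one representing the gene, was at -0.45 (limma adjusted p = 0.0067 over all probes), while the representing probe gave -0.15 and no call. The ratio of Rps27l to Rps27 did not overlap, at -1.46 to -1.35 in CD34+ cells and -1.62 to -1.58 in CD34- cells. Its difference was -0.19, with an exact permutation p of 0.0286, the smallest that 4 against 4 arrays allow. Over the 36 exact tests on paralog ratios the adjusted p was 0.36. For the related lists, 5.65% of all genes were called higher and 6.76% lower. Of 78 mitochondrial ribosomal proteins, 1 was higher and 9 lower, with a median of -0.16. Of 14 measured rescue and turnover genes, 0 were higher and 4 lower, with a median of -0.13. Among the 4 were Pelo, which frees stalled ribosomes, at -0.62, Gtpbp1 at -0.48 and Usp10 at -0.39. Of 15 regulators, 1 was higher and 3 lower, with a median of -0.08, and the others were not called. Among the called ones Myc at -0.44 and Rps6kb1 at -0.40 were lower and Tsc2, an inhibitor of mTOR signalling, was 0.40 higher.

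After Epo, CD34- CD103- cells had 1 member called higher and 0 lower, where 2.54% of 27350 genes were called, 0.654% higher and 1.89% lower. The member median was 0.25, and 82 of 84 members lay above 0, while the all-gene median was 0.08. The groups did not overlap for 38 members, all higher after Epo, against 19.1% of all genes. At an unadjusted p under 0.05 there were 48 members, and without CD34- CD103- array 1 the adjusted count was 4. The shares of all genes for these counts are not given here, so the counts have no background beside them. Slide 3 of this set held CD34- CD103- arrays 2 and 4, with the lowest member medians, and no Epo array. With the slide as a block the median was 0.16, beside 0.01 for all genes, and 24 members had an unadjusted p under 0.05. In that fit 3.35% of all genes were called at the adjusted threshold, and the unadjusted share is not given here. The median within slides was 0.05 and 0.29. The member median was 0.051 after quantile normalization, beside 0.044 for all genes, and 0.039 in the value table, beside 0.037. Relative to the median gene, the members were higher by 0.07 after normexp and by 0.17 with spike-in scaling. When arrays were centred on the members their median was, by construction near 0, -0.012.

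The called gene was Rpl30, a large subunit protein. It measured 6.49, 6.70, 6.64 and 6.70 before Epo and 7.01, 7.17 and 7.14 after it. All Epo arrays were higher, by 0.47 ± 0.08 (limma adjusted p = 0.0138, n = 4 and 3), and by 0.53 to 0.58 within slides. The call was lost without Epo array 2 (limma adjusted p = 0.0822) or 3 (limma adjusted p = 0.0854), after normexp (limma adjusted p = 0.0645), after quantile normalization at 0.26 (limma adjusted p = 0.255), in the value table and with spike-in scaling.

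Rps19 measured 5.57, 5.22, 5.51 and 5.21 before and 5.53, 5.67 and 5.58 after Epo, which overlapped (0.22 ± 0.11, limma adjusted p = 0.363). Rpl22l1 measured 6.26, 6.30, 6.19 and 6.35 before and 6.39, 6.38 and 6.47 after, a difference of 0.13 that was not called (limma adjusted p = 0.452). Rpl10, needed for the subunits to join, measured 7.24, 7.25, 7.26 and 7.18 before and 7.44, 7.55 and 7.56 after, without overlap but without a call (0.29, limma adjusted p = 0.0731). Rpl21 and Rpl3l were the 2 members below 0, at -0.17 and -0.15. Among the related lists Vim fell by 0.43 (limma adjusted p = 0.0246), and 2 mitochondrial ribosomal proteins rose.

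The summed erythroid markers were 48.3 to 71.6 before and 70.3 to 93.2 after Epo in this set, although by their means 6 of the 7 were lower and only Hbb-bt was higher, and the mast cell markers 561 to 625 and 342 to 352. The mean level of Klf1, a master factor of erythroid genes, was 0.01 before and -0.81 after, and that of Hba-a1, alpha globin, -0.33 and -0.91. Hba-a1 was thus not higher after Epo in this set. Within the second set its mean level was 2.97 on the repeat EryCP arrays and 9.53 in Ediff. Whether the members' differences are tied to these markers was not tested.

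Both comparisons that involve Epo use different arrays and share no control. Ediff is defined by Epo and by its CD34-negative and cKit-negative state together. These cannot be told apart in its difference from the repeat EryCP arrays, which is called an Epo difference below only for short. In both, 82 of 84 members lay above 0 on the 75th percentile scale, and the difference was larger in Ediff for 82. Over the 84 genes the differences had a Pearson correlation of 0.46 and a Spearman correlation of 0.34, a description across genes, which are not independent replicates.

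**Figure D5:**
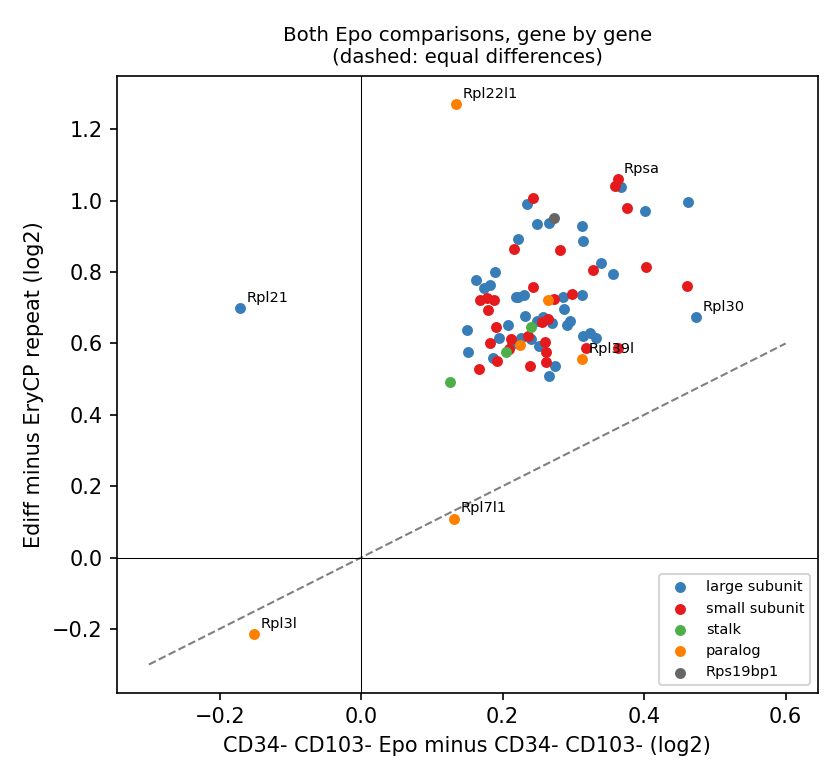
Difference after Epo in the CD34- CD103- cells (horizontal axis, log2) against that of Ediff from the repeat EryCP arrays (vertical axis, log2), with 1 point per ribosomal protein gene, on the 75th percentile scale. 82 of 84 points lie above 0 on both axes, whereas with spike-in scaling 66 of the 84 lie below 0 for Ediff, and Rpl22l1 stands highest at 1.27 on the vertical axis and 0.13 on the horizontal.

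The contrast of both Epo differences was fitted over 13 arrays. It was called for 48 members, all with the larger value in Ediff, where 37.8% of 27282 genes were called and 23.5% were called in that direction, with 14.3% in the other. The member median was 0.42, beside 0.37 for all genes, and it turned to -0.42 with spike-in scaling and -0.01 after quantile normalization. With the slide as a block 74 members were called, where 47.1% of all genes were. Without CD34- CD103- Epo array 1 the count was 30, in a fit whose share of all genes is not given here. Cell origin, sorting gate and array set differ together between the comparisons and cannot be told apart.

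Rpl22l1 had the largest contrast of the members, 1.14 ± 0.13 (limma adjusted p = 2.68e-05), and stayed 0.70 above the family when arrays were centred on the members (limma adjusted p = 0.00379). Rpl21 followed at 0.87 (limma adjusted p = 0.0177), a call lost with the slide as a block (limma adjusted p = 0.0535), after quantile normalization (limma adjusted p = 0.0622), normexp or spike-in scaling, and without CD34- CD103- Epo array 1 (limma adjusted p = 0.0501). Rps26 was at 0.76 (limma adjusted p = 0.00378). Rpl7l1, at -0.02, was not called on the 75th percentile scale (limma adjusted p = 0.881) and lay at -0.46 from the family (limma adjusted p = 0.0283). The contrast for Rpl30, the gene called in the third set, was 0.20 (limma adjusted p = 0.213).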

How the data were processed

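Per the labels, total RNA of sorted EML fractions was labelled with Cy3 together with Agilent spike-in RNA, and scanned arrays were read with Agilent Feature Extraction (10.1.1.1 for the first 2 sets and 10.7.1.1 for the third, per the file headers). The deposited intensity values are processed signals, background-subtracted by the authors' software. The deposited value table holds values on a log2 scale, whose centring is not stated in the sources used here. Its column medians lay between 7.09 and 7.29, and it served as an alternative. Flag columns of the deposited files, other than signals, were used as filters for outliers and for spots well above background.

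The 1639 control spots of each array were dropped, as were outliers among the other 43379. Repeated spots were averaged, which gave 41174 probes, of which 27071 had a gene name. Log2 of the processed signal minus the array's 75th percentile (percentile 75 over all probes) was tested with limma 3.58.1 in R 4.3.3 (lmFit and eBayes, all groups of a set in 1 fit), with Benjamini-Hochberg adjustment at 0.05 over all genes. A probe was tested if it was well above background, in a share of at least 0.5 of its spots, on every array of at least 1 group. Genes named in the text were the members of a fixed list (stalk genes, Rpsa, disease genes and paralogs with their parents), up to 6 members with the largest called rise and fall in each comparison, and the 3 largest called changes of each related list. Members shown for their departure from the family or their lack of overlap were chosen after values were seen. The members and lists were chosen with earlier results of these data known. Alternatives were normexp, quantile and spike-in scaling, no filter, the mean of probes, the slide as a block, the value table, centring on the members, and leaving out arrays. On simulated data for Ediff against the repeat EryCP arrays, 53.7% of genes changed by 1 on the log2 scale were recovered. The number of arrays limits the precision. Sequences and older names came from RefSeq on GRCm38.p6. Figures were drawn with matplotlib 3.10.9. Results for some single genes are not reported here.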

Additional observations from a re-analysis of the deposited data

Results flagged for a closer look

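Rplp2, a stalk gene, stood apart on 1 CD34- CD103- array: its level was 8.33 on array 1 and 8.12 to 8.14 on the other 3. This was 1 of 70 groups of 4 arrays tested by the gap to the nearest array, and about 1 in 20 such groups is picked by chance.

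For 48 members the difference of Ediff from the repeat EryCP arrays was larger than that after Epo in CD34- CD103- cells. This is by limma's test of the contrast on the 75th percentile scale, where 23.5% of all genes were called in that direction. In Ediff, Epo and the sorted cell state cannot be told apart. The contrasts of the named ones were 1.14 for Rpl22l1, 0.87 for Rpl21, 0.76 for Rps26 and for Rpl18, 0.70 for Rpsa, 0.69 for Rpl31, 0.68 for Rps15, 0.67 for Rpl28 and 0.65 for Rps19. They were 0.62 for Rpl10a, 0.55 for Rps6, 0.52 for Rps4x, 0.46 for Rps27l, 0.45 for Rpl7, 0.44 for Rpl10, 0.42 for Rpl4, 0.41 for Rplp2 and 0.37 for Rpl36al. Of these, spike-in scaling left only Rpl22l1 at 0.28 and Rpl21 at 0.0094 above 0. Leaving out 1 array of some group ended the call for Rpl21, Rpsa, Rps6, Rps27l, Rplp2 and Rpl36al, with limma adjusted p from 0.0501 to 0.0946.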

How the results depend on the processing

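Where arrays were left out 1 at a time, the count of members called ranged from 1 to 1 for CR Sca1lo against Sca1hi, from 0 to 1 for EryCP against CR Sca1lo, from 1 to 1 for EryCP against Sca1hi, from 75 to 80 for Ediff, from 0 to 5 for CD34- against CD34+ cells, from 0 to 4 for Epo in the third set and from 30 to 57 for the contrast of the Epo differences. The high counts of 5 and 4 came without CD34- CD103- array 1, and the low count of 30 without CD34- CD103- Epo array 1. The shares of all genes called in these fits with an array left out are not given here.

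Counts and medians that moved were these. For CR Sca1lo against Sca1hi, 0 members were called after normexp and with spike-in scaling, and 3 with the slide as a block. Of all genes, 0.00756%, 0.499% and 17.9% were called in these fits. For EryCP against CR Sca1lo, 0 were called after normexp, with spike-in scaling, centred on the members or without slide 2. With the block 6 were called. The shares of all genes were 0.276%, 1.42%, 4.31%, 3.15% and 20.2%, in that order. The member median after normexp was 0.28, beside -0.55 for all genes. For EryCP against Sca1hi, normexp gave 0 calls and a median of 0.40, beside 0.371% of all genes called and an all-gene median of -0.50. For Ediff, calls and medians were 0 and 0.35 after normexp, 17 and 0.027 after quantile normalization, 0 and -0.15 with spike-in scaling, 41 and 0.14 in the value table, and 8 and -0.023 centred on the members. The shares of all genes in these Ediff fits are given above. For CD34- against CD34+ cells, the count was 1 after normexp and without the filter, and 0 after quantile normalization, with spike-in scaling (median -0.29), in the value table and centred on the members (median -0.0086). The shares of all genes were 9.07%, 9.12%, 12.1%, 1.12%, 12.2% and 10.8%, in that order. For Epo in the third set, 0 members were called after normexp, quantile normalization (median 0.051), spike-in scaling, in the value table (median 0.039) and centred on the members (median -0.012). Of all genes, 1.33%, 2.52%, 0.406%, 2.54% and 9.25% were called, in that order. For the contrast of the Epo differences, calls and medians were 0 and 0.13 after normexp, 4 and -0.012 after quantile normalization, 0 and -0.42 with spike-in scaling, 74 and 0.57 with the block, 22 and 0.11 in the value table, and 2 and -0.013 centred on the members. The shares of all genes called for this contrast were 2.9%, 34.4%, 5.3%, 47.1%, 32.1% and 31.2%, in that order. The other 159 counts and medians of the members stayed within the spread or within 1.5 times.

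Single members changed sign as follows. In Ediff the difference with spike-in scaling was -0.043 for Rpl10a, -0.086 for Rpl22, -0.091 for Rpl10, -0.094 for Rps6, -0.10 for Rps27l, -0.12 for Rpl21, -0.13 for Rps4x, -0.14 for Rpl7, -0.15 for Rpl30, -0.16 for Rpl36a, -0.17 for Rplp2, -0.19 for Rpl11, -0.20 for Rpl38, -0.21 for Rpl5, Rpl3 and Rps27, -0.23 for Rpl36al, -0.25 for Rplp1 and Rpl4, -0.28 for Rpl39, -0.31 for Rpl14, -0.33 for Rplp0. After quantile normalization it was -0.017 for Rpl7, -0.028 for Rpl36a, -0.062 for Rplp2, -0.067 for Rpl38 and Rpl11, -0.084 for Rpl3, -0.10 for Rps27, -0.11 for Rplp1 and Rpl5, -0.14 for Rpl39, -0.21 for Rplp0. In the value table it was -0.013 for Rpl11, -0.016 for Rpl39, -0.076 for Rplp2, -0.083 for Rplp0, -0.11 for Rpl5, -0.16 for Rplp1. The contrast of the Epo differences with spike-in scaling was -0.097 for Rps26, -0.10 for Rpl18, -0.16 for Rpsa, -0.17 for Rpl31, -0.18 for Rps15, -0.19 for Rpl28, -0.21 for Rps19, -0.24 for Rpl10a, -0.31 for Rps6, -0.35 for Rps4x, -0.40 for Rps27l, -0.42 for Rpl7 and Rpl10, -0.44 for Rpl4, -0.45 for Rplp2, -0.49 for Rpl36al. After quantile normalization it was -0.049 for Rpl7, -0.093 for Rplp2, and in the value table -0.097 for Rplp2. The cause of these changes was not tested. Of the other values of named members, 624 kept direction and call and 167 kept direction and lost the call.

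No paired analysis was possible because replicate numbers follow accession order and the labels tie no replicate of 1 group to one of another. This concerns replicate numbers only: the slide that groups share was used as a block and for differences within slides, as given above. Centring on the members and leaving out slide 2 were chosen after seeing the data. A signal near background sets the limit for Rpl39l, the only member not well above background on some arrays.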
